A study of Mus musculus with 2 samples.

Results

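The TNF superfamily consists of secreted or membrane-bound ligands and of the receptors that bind them. All symbols of the deposited tables that begin with Tnfsf or Tnfrsf and a number were taken, together with 14 members that carry older names (Tnf, Lta, Ltb, Ltbr, Cd40, Cd40lg, Cd27, Cd70, Fas, Fasl, Eda, Edar, Eda2r and Relt). This gave 46 of 25791 genes, 19 ligands and 27 receptors. The read-through Tnfsf12-Tnfsf13 is counted among the ligands, and its level cannot be separated from those of Tnfsf12 and Tnfsf13, which share its exons.

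The libraries were made from the fetal thymus of mice at 15 days post coitum, from epithelial cells sorted as EpCAM-positive and negative for CD45 and PDGFRa. Of the 2 libraries, humanCD3eTg came from mice with a human CD3E transgene on a C57BL/6J x CBA/J background, and B6J from C57BL/6 mice. The treatment label gives thymocytes as present for humanCD3eTg and as absent for B6J, although mice carrying many copies of human CD3E are generally known to lack T cells, so the libraries are called by their titles. The sources used here do not state the copy number and promoter of the transgene or how many animals stand behind each library. With 1 library per group there is no replicate, no difference could be tested or set against a spread between animals, and strain, transgene and library cannot be told apart.

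Signals of this family pass between lymphoid and epithelial cells in the thymus. RANKL (Tnfsf11), CD40 ligand and lymphotoxins made by lymphoid cells bind receptors on epithelial cells, and the receptors act through TRAF adaptors and NF-kB to drive the growth and maturation of the medulla. Other members cause cell death, co-stimulate T cells, keep B cells alive or, as ectodysplasin does, shape hair, teeth and glands. In the fetal thymus lymphoid tissue inducer cells and early gamma delta T cells are known sources of RANKL.

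The library titled humanCD3eTg had lower levels than the library titled B6J of the ligands Ltb, Tnfsf11, Cd70 and Tnfsf9 and of the receptors Cd27, Cd40, Tnfrsf14, Tnfrsf8 and Edar. The most abundant receptors differed less: Ltbr and Tnfrsf1a were modestly lower, and Tnfrsf12a was higher. Levels are in FPKM, fragments per kilobase of transcript scaled by the total of mapped fragments, which compares genes per length. Differences are log2 ratios of humanCD3eTg over B6J on FPKM + 1, where a pseudocount of 1 understates the differences of low genes, and a ratio of at least 1 in size is called 2-fold. Averaged over the libraries, 22 of the 46 members reached 1 FPKM, among them 5 ligands and 17 receptors. In humanCD3eTg 9 of these 22 were at least 2-fold lower, beside 4.47% of the 13493 genes averaging 1 FPKM or more (the genes used below), and none was 2-fold higher, beside 2.1%. The median log2 ratio was -1.36 for the 5 ligands and -0.48 for the 17 receptors, beside -0.05 for all 13493 genes, but 3 of these 5 ligands (Ltb, Tnfsf11 and Cd70) reached 1 FPKM only in B6J. With no filter the median was -0.31 for all 19 ligands and -0.45 for all 27 receptors. Most of the 19 ligands average under 1 FPKM, where the pseudocount pulls ratios toward 0. Neither pair of medians therefore ranks ligands against receptors. Of the 22, 20 were lower, where 55.4% of the genes used were lower, or 19 after centring on the median or quantile normalization, which turn Tnfrsf22.

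A filter on the mean lets in genes through the library where they are high. Of the 22 members 6 reached 1 FPKM only in B6J, and these 6 had to differ. The other 16 reached 1 FPKM in each library, and of them 3 (Cd40, Tnfrsf14 and Tnfsf9) were at least 2-fold lower, beside 2.44% of 12615 such genes, and none was 2-fold higher, beside 1.26%. Their median was -0.46, beside -0.04 for those genes, and 14 of the 16 were lower, where 54.6% of those genes were. Over all 46 members with no filter 10 were at least 2-fold lower, beside 2.81% of all genes, and none 2-fold higher, beside 1.3%. In direction 37 were lower, where 45.3% of all genes were, 7 higher and 2 equal because they were listed at 0 in both libraries. Another 8 members were listed at 0 in humanCD3eTg only and 2 in B6J only.

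**Figure D1:**
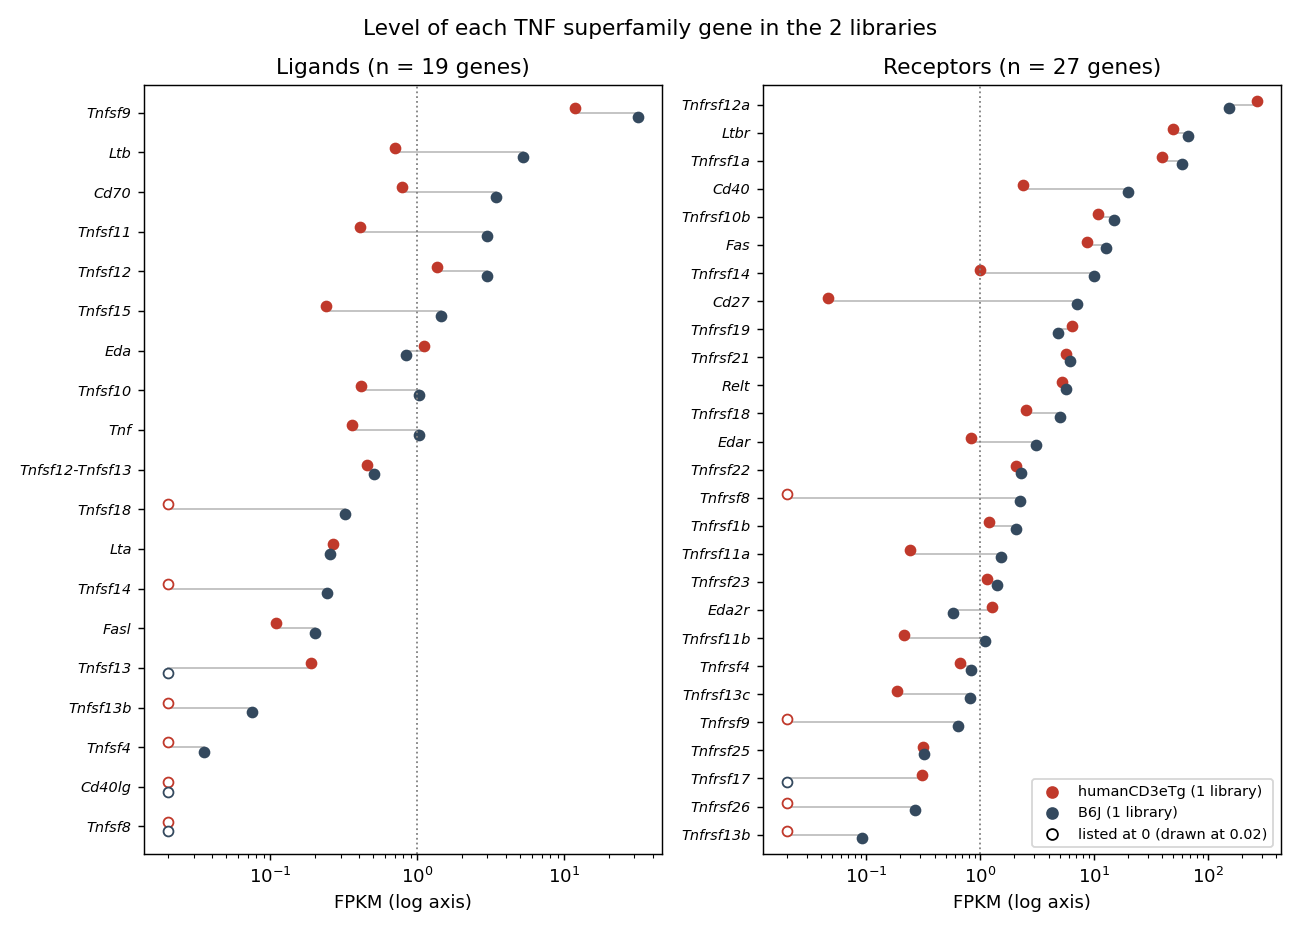
FPKM (log axis) of the 19 ligands (left) and 27 receptors (right) in the library titled humanCD3eTg (red) and the library titled B6J (dark), ordered by their higher value, with open circles for genes listed at 0 and a dotted line at 1 FPKM. Most red points lie left of the dark ones, with wide gaps for Ltb, Cd70, Tnfsf11, Cd40, Tnfrsf14 and Cd27, while Tnfrsf12a, at 270.5 and 155.1 FPKM, is the highest member and lies the other way.

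Markers of some other cell types were lower in humanCD3eTg too, and those of others were near equal in sum or higher. The thymocyte list of 20 genes summed to 14.4 FPKM in humanCD3eTg and 183.8 FPKM in B6J, and 11 of its 14 genes that averaged 1 FPKM or more were 2-fold lower. The defining markers Cd3d and Cd3g were listed at 0 in humanCD3eTg, against 18.7 and 45.5 FPKM in B6J. Tcf7, with Cd3g the most abundant of the list, stood at 3.57 and 27.2 FPKM. Of the 20 genes 7 were listed at 0 in humanCD3eTg and 1 in B6J. The pan-haematopoietic list of 16 genes summed to 81.7 and 243.0 FPKM (13 of 15 used genes 2-fold lower), the endothelial list of 15 genes to 20.7 and 70.7 FPKM (9 of 11) and the list of B, NK and innate lymphoid cells to 66.4 and 131.5 FPKM (2 of 7). Without Gzma, a protease gene of cytotoxic lymphocytes listed at 0 in humanCD3eTg and at 56.6 FPKM in B6J, the last of these lists summed to 66.4 and 74.9 FPKM. Of these sums Id2 alone held 58.7 and 55.8 FPKM, so they say little about the other genes of that list. Arhgdib alone held 64.9 and 117.4 FPKM of the pan-haematopoietic sums, and Egfl7 8.41 and 8.54 FPKM of the endothelial sums. Macrophage and dendritic markers summed to 27.5 and 34.0 FPKM. Of 7 used genes 3 were lower, 2 of them 2-fold, and 4 higher, 1 of them 2-fold (median 0.33). Mesenchymal markers summed to 268.2 and 257.9 FPKM, although 8 of 11 used genes were lower, 2 of them 2-fold. The other 3 were higher, none of them 2-fold (median -0.38). Ptprc, the gene of the CD45 that the sort selected against, stood at 0.359 FPKM in humanCD3eTg and 4.18 FPKM in B6J. Pigment and neural crest markers summed to 141.4 FPKM in humanCD3eTg and 11.1 FPKM in B6J, with 8 of 9 used genes at least 2-fold higher. The sorted epithelium was present in both libraries, with Epcam at 231.4 and 173.5 FPKM. The thymic epithelial list summed to 8189 and 8121 FPKM, with the keratin genes Krt18 (2951 and 2656) and Krt8 (2103 and 2183) its most abundant. Of its 12 genes 9 were lower, 1 of them at least 2-fold, and 3 higher, 1 of them at least 2-fold (median -0.35). Foxn1, a transcription factor gene of thymic epithelium, stood at 43.7 and 91.1 FPKM (-1.04). In bulk RNA fewer cells of a type and less RNA per cell cannot be told apart, and the part of these markers in the values of Cd27, Ltb, Tnfsf11, Cd70, Tnfrsf14, Cd40 and the other members was not tested.

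Estimates of the fragments behind a value show how far counting alone limits it. The low values of each table lie on steps of 1 fragment, worth 0.0632 FPKM over 1 kb in humanCD3eTg and 0.0502 in B6J, which corresponds to about 15800000 fragments in humanCD3eTg and 19900000 in B6J. The most frequent quotient of humanCD3eTg over B6J among 3446 low genes, 1.263, is close to the ratio of these steps, 1.259. The fragments given below are rounded from these steps and from transcript lengths of a later annotation, and the 95% intervals cover counting error only, not differences between mice, sorts or strains.

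**Figure D2:**
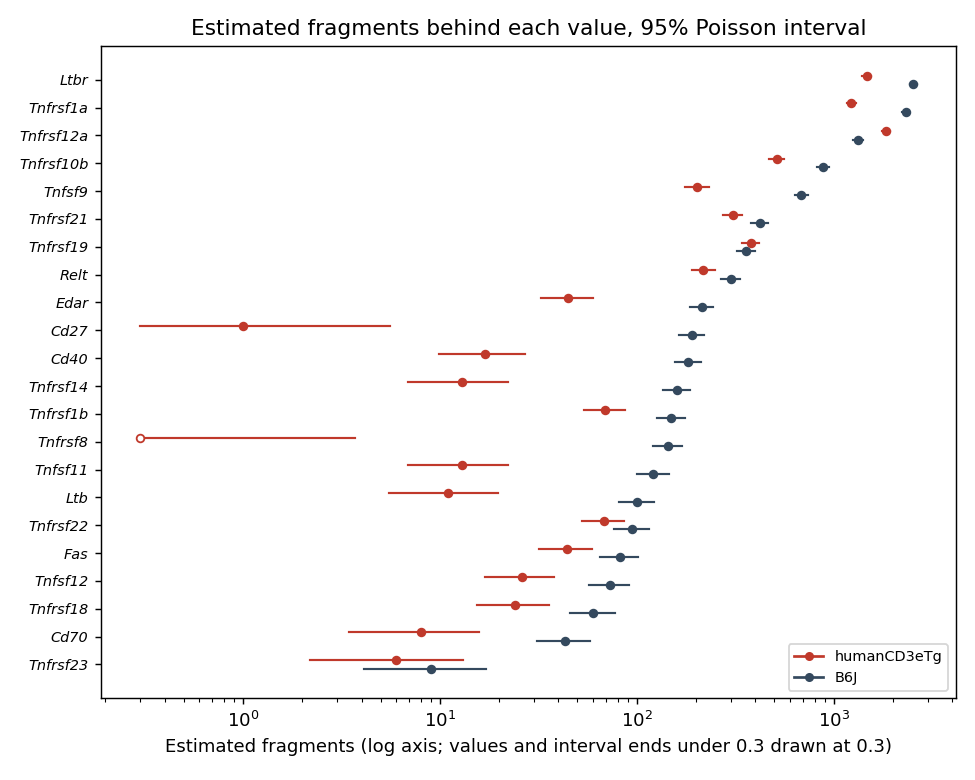
Estimated fragments (log axis) for the 22 members with a mean of at least 1 FPKM, with 95% Poisson intervals, in humanCD3eTg (red) and B6J (dark), not corrected for the difference in depth. Tnfrsf23 rests on 6 and 9 fragments of its shortest transcript, with overlapping intervals, or on 57 and 88 if its longest is taken, whereas Cd40 rests on 17 and 183 and Ltbr on 1474 and 2540.

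Among ligands of the lymphotoxin, TNF and RANKL axes, Ltb and Tnfsf11 differed most. Ltb, the membrane anchor subunit of the lymphotoxin heterotrimer, stood at 0.708 FPKM in humanCD3eTg and 5.27 FPKM in B6J (log2 ratio -1.88), from about 11 and 100 fragments. Its level in humanCD3eTg was 0.134 times that in B6J, with a counting interval of 0.067 to 0.259. Tnfsf11 stood at 0.404 FPKM in humanCD3eTg and 3.0 FPKM in B6J (log2 ratio -1.51), from about 13 and 121 fragments, and its quotient of 0.135 (0.07 to 0.24) is almost that of Ltb. Thus neither ligand reached 1 FPKM in humanCD3eTg and both did so in B6J.

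Lta, which encodes the soluble lymphotoxin subunit that pairs with the product of Ltb, had no such difference in its values. It stood at 0.267 FPKM in humanCD3eTg and 0.254 FPKM in B6J, from about 5 and 6 fragments, and its quotient of 1.05 has a counting interval of 0.253 to 4.13. Tnf, which encodes the inflammatory cytokine TNF, stood at 0.357 FPKM in humanCD3eTg and 1.02 FPKM in B6J, from about 7 and 26 fragments. Tnfsf14, which encodes LIGHT, a ligand of both Ltbr and Tnfrsf14, was listed at 0 in humanCD3eTg and at 0.241 FPKM in B6J. Cd40lg, the gene of the ligand of CD40, was listed at 0 in both libraries. Ltb, Tnf and Lta are neighbours on chromosome 17, within the MHC, where the strains behind the libraries differ.

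On the receptor side of these axes the abundant members were modestly lower. Ltbr, the lymphotoxin beta receptor, stood at 49.1 FPKM in humanCD3eTg and 67.2 FPKM in B6J (log2 ratio -0.45), higher in level than 86.4% and 89.6% of the genes used. Tnfrsf1a, the widely expressed TNF receptor with a death domain, stood at 40.0 FPKM in humanCD3eTg and 59.9 FPKM in B6J (-0.57), and Tnfrsf1b, which lacks that domain, at 1.21 and 2.07 FPKM (-0.48). These 3 receptors kept between 0.583 and 0.731 of their B6J level in humanCD3eTg.

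Cd40 and Tnfrsf14 differed by far more than Ltbr. Cd40, which medullary epithelial cells, B cells and dendritic cells use to receive T cell help, stood at 2.40 FPKM in humanCD3eTg and 20.1 FPKM in B6J (log2 ratio -2.63). Its quotient was 0.119, with a counting interval of 0.0667 to 0.192 from about 17 and 183 fragments of its shortest transcript. Tnfrsf14, which encodes HVEM, a receptor of LIGHT found on lymphocytes and epithelia, stood at 1.01 FPKM in humanCD3eTg and 9.93 FPKM in B6J (-2.45), a quotient of 0.101 (0.0533 to 0.18). In B6J Cd40 thus ranked above 69.5% of the genes used, and in humanCD3eTg above 16.9%.

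Both receptors of RANKL were low. Tnfrsf11a, which encodes the signalling receptor RANK, stood at 0.244 FPKM in humanCD3eTg and 1.54 FPKM in B6J, a mean below 1 FPKM, with a log2 ratio of -1.03. About 19 and 148 fragments lay behind these values, for a quotient of 0.159 (0.0946 to 0.261). Tnfrsf11b, which encodes the soluble decoy osteoprotegerin, stood at 0.217 FPKM in humanCD3eTg and 1.11 FPKM in B6J (-0.79), from about 9 and 58 fragments. The ligand, the receptor and the decoy were therefore all lower in humanCD3eTg, with quotients between 0.135 and 0.196. Of 11 used medullary epithelial markers 9 were lower beside them, 7 at least 2-fold, and 1 was 2-fold higher, with a median of -1.31. Their sum lay the other way, at 326.2 FPKM in humanCD3eTg and 291.1 FPKM in B6J, since the most abundant of them, Cldn4, a tight junction gene, stood at 262.1 and 143.5 FPKM. The thymocyte markers given above were lower as well.

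**Figure D3:**
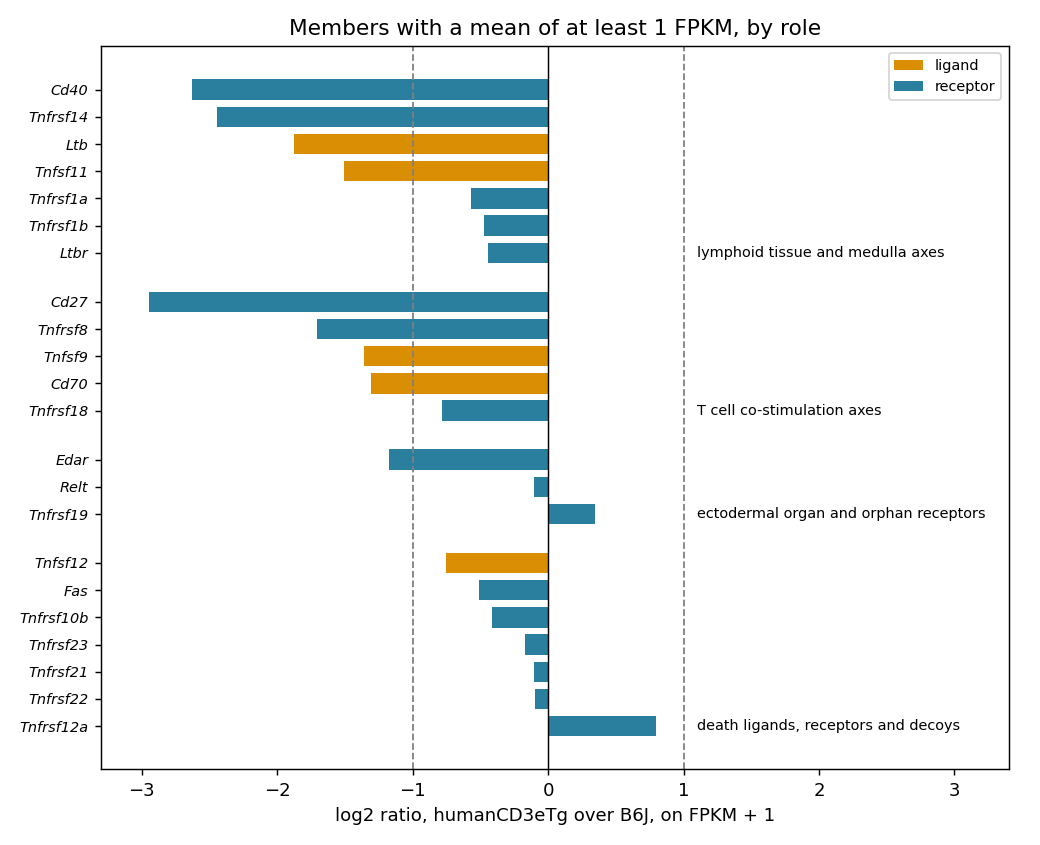
Log2 ratios of humanCD3eTg over B6J on FPKM + 1 for the 22 members with a mean of at least 1 FPKM, grouped by role, with ligands in orange, receptors in blue and dashed lines at 2-fold. Bars past the left line belong to the lymphoid tissue and co-stimulation groups and to Edar. The group of death ligands, receptors and decoys lies between the lines, with Tnfrsf12a at 0.80.

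Members that co-stimulate T cells contained the lowest ratio of the family. Cd27, a receptor of T cells and their progenitors, stood at 0.0460 FPKM in humanCD3eTg and 7.09 FPKM in B6J (log2 ratio -2.95). About 1 fragment in humanCD3eTg stands against about 190 in B6J, which gives a quotient of 0.00649 with a counting interval of 0.000167 to 0.0374. Cd70, its ligand, stood at 0.791 FPKM in humanCD3eTg and 3.44 FPKM in B6J (-1.31), from about 8 and 43 fragments. Cd27 lies beside Ltbr and Tnfrsf1a on chromosome 6, and these neighbours differed far less, with log2 ratios of -0.45 and -0.57.

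Tnfsf9, which encodes the ligand of the receptor 4-1BB, was the most abundant ligand in both libraries. It stood at 11.8 FPKM in humanCD3eTg and 31.9 FPKM in B6J (log2 ratio -1.36), a quotient of 0.370 (0.315 to 0.434), and made up 64.8% and 60.7% of the summed ligand level of 18.2 and 52.6 FPKM. Its receptor gene Tnfrsf9 was listed at 0 in humanCD3eTg and at 0.641 FPKM in B6J. Without Tnfsf9 the ligands summed to 6.40 FPKM in humanCD3eTg and 20.7 FPKM in B6J. Tnfsf9, Cd70 and Tnfsf14 are neighbours on chromosome 17, and each was lower or listed at 0 in humanCD3eTg.

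The other co-stimulatory receptors were lower or near equal. Tnfrsf8, which encodes CD30, was listed at 0 in humanCD3eTg and at 2.26 FPKM, about 144 fragments, in B6J, and its ligand gene Tnfsf8 was listed at 0 in both. Tnfrsf18, which encodes GITR, stood at 2.52 FPKM in humanCD3eTg and 5.05 FPKM in B6J (log2 ratio -0.78), and its ligand gene Tnfsf18 was listed at 0 in humanCD3eTg and at 0.322 FPKM in B6J. Tnfrsf4, which encodes OX40 and is the neighbour of Tnfrsf18 on chromosome 4, stood at 0.663 FPKM in humanCD3eTg and 0.840 FPKM in B6J, from about 9 and 14 fragments. The ligand gene of OX40, Tnfsf4, was listed at 0 in humanCD3eTg and at 0.0355 FPKM, about 1 fragment, in B6J.

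The group of death ligands, receptors and decoys held the most abundant member of the family. As drawn here, the group takes in Tnfsf12 and Tnfrsf12a and leaves out Tnfrsf1a. None of its 7 genes with an average of 1 FPKM or more differed by 2-fold on FPKM + 1 (median -0.17). With a pseudocount of 0.1 Tnfsf12 did so (-1.07). Tnfrsf12a, which encodes Fn14, the receptor of TWEAK that is induced by growth factors and injury, stood at 270.5 FPKM in humanCD3eTg and 155.1 FPKM in B6J (log2 ratio 0.80). Its quotient was 1.74 (1.62 to 1.87), and it ranked above 97.0% and 95.2% of the genes used. Tnfsf12, the gene of TWEAK, was lower, at 1.36 FPKM in humanCD3eTg and 2.98 FPKM in B6J (-0.75), from about 26 and 73 fragments. Tnfrsf12a made up 65.8% of the summed receptor level of 411.0 FPKM in humanCD3eTg and 40.2% of 386.2 FPKM in B6J, and without it the receptors summed to 140.5 and 231.1 FPKM.

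Fas, the receptor of Fas ligand, stood at 8.71 FPKM in humanCD3eTg and 12.8 FPKM in B6J (log2 ratio -0.51), with Fasl at 0.109 and 0.202 FPKM from about 3 and 7 fragments. Tnfrsf10b, the mouse death receptor of TRAIL, stood at 11.0 FPKM in humanCD3eTg and 14.9 FPKM in B6J (-0.41). TRAIL itself, encoded by Tnfsf10, stood at 0.412 FPKM in humanCD3eTg and 1.03 FPKM in B6J, from about 31 and 98 fragments. Each of these values was thus lower in humanCD3eTg, by less than 2-fold on FPKM + 1. For Fasl the counting interval of the quotient, 0.09 to 2.36, spans both directions. Without the pseudocount Tnfsf10 differed by more than 2-fold, with a quotient of 0.401 (0.257 to 0.602).

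Near-equal levels were found for other receptors of this group. Tnfrsf21, which encodes death receptor DR6, stood at 5.69 FPKM in humanCD3eTg and 6.18 FPKM in B6J, with a quotient of 0.920 (0.793 to 1.07). Tnfrsf22 and Tnfrsf23, mouse TRAIL receptors without a death domain, stood at 2.07 and 1.15 FPKM in humanCD3eTg, against 2.29 and 1.41 FPKM in B6J. Their neighbour Tnfrsf26 on chromosome 7 was listed at 0 in humanCD3eTg and at 0.270 FPKM in B6J, and since the 3 genes are close relatives, reads may have been split between them. Tnfrsf25, the receptor of TL1A, stood at 0.316 FPKM in humanCD3eTg and 0.321 FPKM in B6J, while Tnfsf15, the gene of TL1A and known from endothelial cells, stood at 0.238 and 1.46 FPKM, from about 12 and 91 fragments.

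The ectodysplasin receptors differed in opposite directions. Edar, the receptor through which ectodysplasin A1 shapes hair follicles, teeth and glands, stood at 0.835 FPKM in humanCD3eTg and 3.13 FPKM in B6J (log2 ratio -1.17), a quotient of 0.267 (0.188 to 0.367) from about 45 and 214 fragments. Eda2r, the X-linked receptor of ectodysplasin A2, stood at 1.27 FPKM in humanCD3eTg and 0.585 FPKM in B6J (0.52), a quotient of 2.17 (1.52 to 3.09) from about 91 and 53 fragments. Eda, which encodes both ligand forms, stood at 1.11 FPKM in humanCD3eTg and 0.838 FPKM in B6J, from about 17 and 16 fragments of its shortest transcript. Edaradd, the adaptor of EDAR, stood at 1.84 FPKM in humanCD3eTg and 6.02 FPKM in B6J (-1.31), lower like Edar.

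Tnfrsf19, which encodes TROY, a receptor of epithelial and neural progenitors, stood at 6.39 FPKM in humanCD3eTg and 4.81 FPKM in B6J (log2 ratio 0.35), a quotient of 1.33 (1.15 to 1.54). Relt stood at 5.21 FPKM in humanCD3eTg and 5.70 FPKM in B6J (-0.11), a quotient of 0.915 (0.765 to 1.09). Tnfrsf19 and Tnfrsf12a were the only members with a mean of at least 1 FPKM that were higher in humanCD3eTg on the values as deposited, and pigment and neural crest markers were also higher there. Their part in the values of Tnfrsf19 and Tnfrsf12a was not tested.

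Genes of the B cell survival axis were hardly present. Tnfsf13b, which encodes BAFF, and Tnfrsf13b, which encodes TACI, were listed at 0 in humanCD3eTg and at 0.0752 and 0.0915 FPKM in B6J. Tnfrsf13c, which encodes the BAFF receptor, stood at 0.185 FPKM in humanCD3eTg and 0.822 FPKM in B6J, from about 5 and 28 fragments. Tnfsf13, the gene of APRIL, and Tnfrsf17, the gene of BCMA, stood at 0.190 and 0.311 FPKM in humanCD3eTg, about 4 and 3 fragments, and were listed at 0 in B6J. No member of this axis reached 1 FPKM in either library. The read-through Tnfsf12-Tnfsf13 stood at 0.455 FPKM in humanCD3eTg and 0.504 FPKM in B6J.

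Ligands and receptors were also set side by side as pairs. Of 29 known pairs 2 had both partners at 1 FPKM or more in humanCD3eTg, namely Tnfsf12 with Tnfrsf12a and Eda with Eda2r, against 11 pairs in B6J, which include Ltb with Ltbr, Tnfsf11 with Tnfrsf11a and Cd70 with Cd27. Of these 11 pairs 6 rest on Tnf or Tnfsf10, at 1.02 and 1.03 FPKM in B6J, and without those ligands the counts were 2 in humanCD3eTg and 5 in B6J. The pair of Eda and Eda2r also lies near the limit, with Eda at 1.11 FPKM in humanCD3eTg and 0.838 FPKM in B6J, from about 17 and 16 fragments. Of the 46 members 18 reached 1 FPKM in humanCD3eTg and 27 in B6J, beside 13165 and 13608 of all 25791 genes. These pairs share genes and each library holds RNA of several cell types, so the counts do not show which cells hold either partner. In both libraries the summed level of the receptors was far above that of the ligands, at 411.0 against 18.2 FPKM in humanCD3eTg and at 386.2 against 52.6 FPKM in B6J.

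Neighbouring members did not always share their difference. By the order of genes in RefSeq 22 of the 45 placed members lie in 9 clusters with gaps of at most 100 kb. In the pair of Tnfrsf8 and Tnfrsf1b on chromosome 4 the first was listed at 0 in humanCD3eTg, whereas Tnfrsf1b had a log2 ratio of -0.48. Tnfsf15, with a ratio of -0.99, lies beside Tnfsf8 on the same chromosome. Since Tnfsf8 was listed at 0 in both libraries, this pair cannot show whether a difference is shared.

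Some genes of this family are known targets of NF-kB. In a search added after the values were seen, the window from 250 bases before to 50 after the annotated start was read for the NF-kB consensus of 10 letters, on both strands. RefSeq promoters of build GRCm38.p6 were found for 35 of the 46 members, and not for 11, among them Cd40, Cd70 and Tnfsf9. Of those searched, 3 of 35 held a match, 8.57%, beside 5.14% of 27025 genes with a promoter. These 3 are printed because they are the members with a match among the 35. Capitals mark the match, which in Tnfrsf9 is a run of overlapping matches. A match describes the letters only and does not show binding.
Ltb, chr17:35194257-35194556, plus strand: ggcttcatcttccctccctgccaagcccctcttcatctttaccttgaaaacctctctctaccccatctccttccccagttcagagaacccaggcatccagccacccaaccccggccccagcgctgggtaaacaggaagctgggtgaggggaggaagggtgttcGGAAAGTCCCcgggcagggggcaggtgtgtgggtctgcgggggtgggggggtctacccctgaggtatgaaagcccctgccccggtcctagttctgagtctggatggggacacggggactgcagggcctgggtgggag
Tnfrsf8, chr4:145315115-145315414, minus strand: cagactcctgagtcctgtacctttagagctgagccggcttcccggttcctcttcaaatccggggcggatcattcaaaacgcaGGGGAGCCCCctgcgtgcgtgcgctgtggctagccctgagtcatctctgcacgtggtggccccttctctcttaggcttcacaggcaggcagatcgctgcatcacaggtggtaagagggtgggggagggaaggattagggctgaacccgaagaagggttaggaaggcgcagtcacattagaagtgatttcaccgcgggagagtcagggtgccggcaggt
Tnfrsf9, chr4:150927749-150928048, plus strand: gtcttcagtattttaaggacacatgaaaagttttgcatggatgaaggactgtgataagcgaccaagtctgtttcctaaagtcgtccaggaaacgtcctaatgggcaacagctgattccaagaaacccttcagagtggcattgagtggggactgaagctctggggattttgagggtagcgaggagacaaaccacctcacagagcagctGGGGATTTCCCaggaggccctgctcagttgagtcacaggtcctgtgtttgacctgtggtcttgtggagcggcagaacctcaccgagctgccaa

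Downstream of the receptors, most adaptor genes were lower by less than 2-fold. Of the 11 TRAF, cIAP and other adaptor genes, all with a mean of at least 1 FPKM, 10 were lower and 2 at least 2-fold, with a median of -0.49. The 2 are Edaradd, given above, and Birc3, which encodes the ubiquitin ligase cIAP2 and is itself a target of NF-kB, at 17.3 FPKM in humanCD3eTg and 36.7 FPKM in B6J (-1.04). Traf1, an adaptor that NF-kB also induces, stood at 1.04 FPKM in humanCD3eTg and 2.90 FPKM in B6J (-0.93), and Birc2, the gene of cIAP1, at 21.5 and 32.3 FPKM (-0.57).

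Of 15 NF-kB subunits, kinases and inhibitors 10 were lower, near the 55.4% of all genes used, and none was 2-fold different, with a median of -0.18. The lowest were Relb and Nfkb2, the subunits of the alternative pathway that RANK, CD40 and the lymphotoxin beta receptor use. Relb stood at 32.0 FPKM in humanCD3eTg and 60.8 FPKM in B6J (-0.91) and Nfkb2 at 56.3 and 93.3 FPKM (-0.72). Bcl3, a nuclear inhibitor-like partner, stood at 30.7 and 44.1 FPKM (-0.51), and the inhibitor gene Nfkbie at 16.8 and 23.5 FPKM (-0.46).

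Death receptor signalling genes had a median of -0.33 over 11 of 12 genes, 10 of them lower and none 2-fold. Bid, which links death receptors to mitochondria, stood at 2.36 FPKM in humanCD3eTg and 4.56 FPKM in B6J (-0.73), Rnf31, a ligase of linear ubiquitin chains, at 6.91 and 10.4 FPKM (-0.52), Ripk3, a kinase of necroptosis, at 3.45 and 4.76 FPKM (-0.37) and Cflar, an inhibitor of caspase activation, at 11.5 and 15.1 FPKM (-0.36). Proteases that process or shed ligands, listed together with Rhbdf2, a partner of ADAM17, had a median of -0.44 over 5 of 6 genes. All 5 were lower and none 2-fold. Mmp14 stood at 37.7 and 66.6 FPKM (-0.81) and Rhbdf2 at 15.3 and 24.2 FPKM (-0.63). Furin stood at 11.8 and 16.4 FPKM (-0.44) and Adam17, the sheddase of TNF, at 9.18 and 11.8 FPKM (-0.34). The 4 list medians lie between -0.49 and -0.18, beside -0.05 for all genes used.

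**Figure D4:**
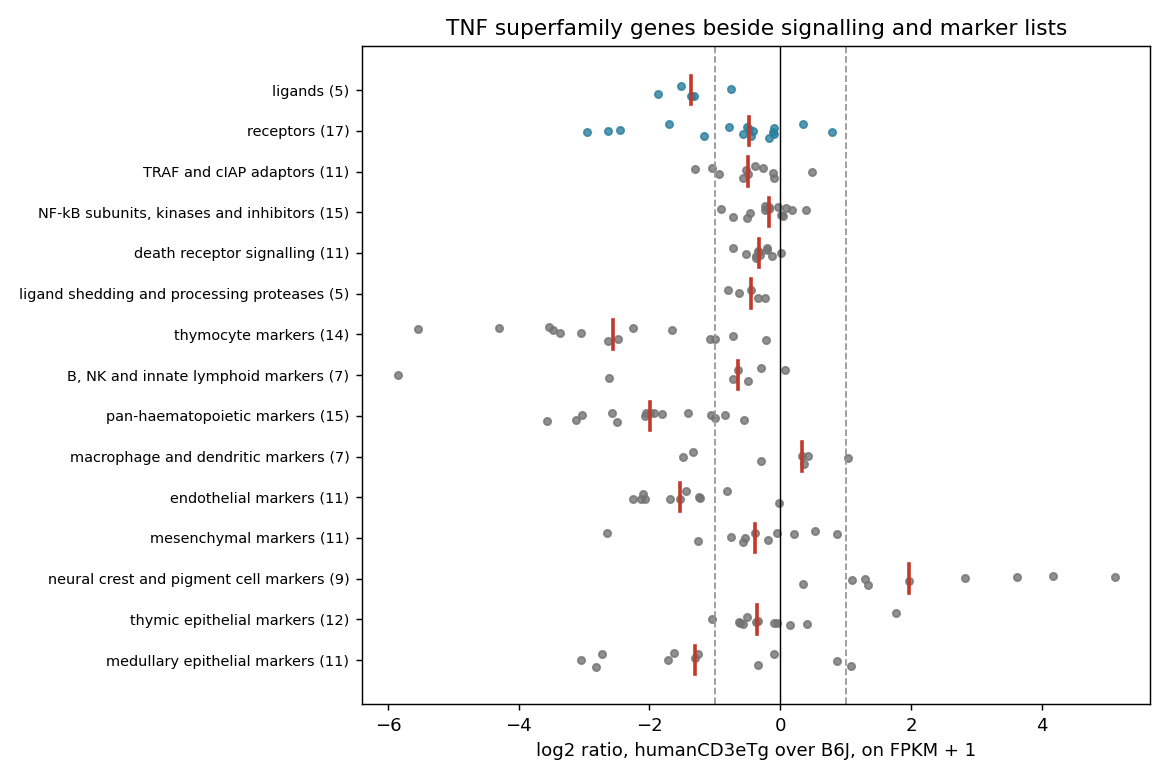
Log2 ratios of humanCD3eTg over B6J on FPKM + 1 for each gene averaging 1 FPKM or more, 1 row per list with its number of genes, red bars at the list median and dashed lines at 2-fold. The medians are -1.36 for the 5 ligands, 3 of which reach 1 FPKM only in B6J, -0.48 for the receptors and -2.55 for thymocyte markers. With no filter the ligand median is -0.31 and that of thymocyte markers -1.36.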

How the data were processed

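Per the labels' protocols, 2 libraries were prepared from total RNA with a TruSeq kit of Illumina. For each library the authors deposited 1 FPKM value for each of 25791 symbols. Per the submitters' processing notes, TopHat2 2.0.8, Bowtie2 2.1.0, Cufflinks 2.1.1 and mm9 were used, in roles that are not stated. Annotation, filters and use of strand are not stated either, so overlapping genes cannot be separated. Groups follow the titles. Members, lists and tests were chosen with earlier results of these data known.

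Log2 ratios were computed on FPKM + 1 with Python 3.11.15, pandas 2.3.3, numpy 2.4.6 and scipy 1.17.1. Genes that averaged 1 FPKM or more were used, and values of at most 0.001 FPKM are called listed at 0, which can also be a failed estimate. No test was run. All members may be named, from each signalling list the 4 genes with the largest ratio in size, and from marker lists the most abundant. To these Cd3d, Epcam, Foxn1 and Ptprc were added as checks of the label and the sort. The calls were checked on simulated data with 4-fold changes and a noise of fixed size. That noise stood for neither counting error at few fragments nor differences between animals, so the check does not bear on either.

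Depth was estimated from low values of genes with 1 RefSeq transcript, with its length in GENCODE M21 less a number of bases. The step and the 210 bases taken off were those with the largest mean of a cosine score that peaks at whole fragments. The step was searched from 0.03 to 0.15 FPKM over 1 kb. Of 386 and 450 low genes in humanCD3eTg and B6J, 59.1% and 61.1% came within 0.1 of a whole fragment, where a step unrelated to the data would give 20%. Since the step was chosen by search on these same genes, 20% is a low mark to compare with. For each of 45 members the shortest linked transcript that gives at least 1 fragment where the value is above 0 was used. Fragment intervals are exact Poisson intervals, and quotient intervals are exact binomial (Clopper-Pearson) intervals on those fragments, at 95%. Coordinates are those of the RefSeq promoters and not of the deposited tables. Alternatives were limits of 1.5-fold and 4-fold, pseudocounts of 0.1 and 5, a minimum average of 5 FPKM or none, quantile normalization, median centring, and rescaling to equal totals after leaving out ribosomal protein, mitochondrial and haemoglobin genes. Leaving out genes listed at 0 in either library was chosen after seeing the data.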

Additional observations from a re-analysis of the deposited data

How the results depend on the processing

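Counts of members at least 2-fold lower are of 22 unless stated, with the share of all genes under the same setting in brackets. The count of 9 (4.47%) was 10 of 46 with no filter (2.81%) and 10 with a pseudocount of 0.1 (6.69%). It stayed at 9 after median centring (3.82%), quantile normalization (3.74%) or rescaling (4.65%). With a limit of 1.5-fold it was 11 (10.9%), and without genes listed at 0 it was 8 of 21 (3.88%). It was 4 with a pseudocount of 5 (1.65%), 3 of 11 with a mean of at least 5 FPKM (2.92%) and 3 with a limit of 4-fold (1.27%). These last settings shrink or leave out low genes or ask for more. No member was 2-fold higher under any of these, and 1 (Tnfrsf12a) passed the limit of 1.5-fold (5.95%). Eda2r, with an FPKM quotient of 2.17, averaged 0.928 FPKM and so fell under the filter. With no filter it was counted on FPKM + 1, where its ratio was 0.52. The ligand median of -1.36 was -1.99 with a pseudocount of 0.1, -0.57 with 5, -0.31 with no filter over 19 genes and -1.26 after median centring. The receptor median of -0.48 was -0.38 after median centring or with a pseudocount of 5 and otherwise moved by less than 0.1. The ratio of Tnfrsf22, -0.10, was 0.00 after median centring and 0.04 after quantile normalization. Under a pseudocount of 5 Cd70, Edar, Ltb, Tnfrsf11a, Tnfrsf8 and Tnfsf11 were within 2-fold, Tnfsf12 passed 2-fold with a pseudocount of 0.1 (-1.07), and Tnfrsf11a was within it also after median centring (-0.93) and quantile normalization (-0.90). Over all genes 68.0% of 2-fold calls were lower, and 57.6% after quantile normalization. No paired analysis was possible because each group has 1 library. Members of few fragments, such as Lta, Fasl, Tnfsf13 and Tnfrsf17, are limited by depth.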

Other observations

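Ngfr, the gene of the low-affinity neurotrophin receptor, belongs to the receptor family by structure and has a symbol outside the choice of members. It was looked at after the other values were seen. It stood at 10.5 FPKM in humanCD3eTg and 8.62 FPKM in B6J, a log2 ratio of 0.26 on FPKM + 1, beside neural crest and pigment markers that summed to 141.4 and 11.1 FPKM. Their part in the value of Ngfr was not tested.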
